A study of Rattus norvegicus with 10 samples.

Results

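The genes described here keep the genome intact: 40 genes for the sensing of DNA damage, the checkpoints of the cell cycle and the repair of DNA. They were taken by name, and each probe was assigned through the transcript accession given on the array. A probe was found for 28 of the 40 genes, 1 probe for each gene, and 27 of these were bright enough to be tested. The array as a whole held 30367 probes, of which 21892 were tested. The remaining 12 genes, Atr, Tp53bp1, Prkdc, Blm, Wrn, Lig3, Ercc2, Ercc4, Ercc5, Msh6, Fanca and Fancg, were matched to no probe and were not analysed here.

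The samples were testes of male rat pups aged 6 postnatal days, and their total RNA was hybridised to 10 one-colour Agilent arrays, 1 for each of 10 sire codes. All pups were crosses of Brown Norway fathers and Sprague Dawley mothers, without a further allele named. The fathers had been given saline or BEP for 9 weeks and were then left to recover for 9 weeks, so the pups themselves were not treated. BEP is the usual abbreviation of bleomycin, etoposide and cisplatin, drugs that damage DNA, but the labels do not name the drugs. The code letter is C on 5 arrays and T on 5. Reading C as saline and T as BEP is an inference that no label states, so the groups are called C and T throughout. How many pups an array stands for is stated nowhere in the labels, and p-values measure the spread between these arrays only.

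A cell answers a break in its DNA with sensor proteins that find the lesion and kinases that halt the cell cycle. Breaks of both strands are either joined end to end or copied from the sister chromatid by recombination, while damaged bases, bulky adducts, mispaired bases and crosslinks each have a pathway of their own. In the testis of the young rat, gonocytes resume division and become spermatogonia, and Sertoli cells still divide. Dividing cells need these pathways to copy their DNA intact, and in germ cells an unrepaired mutation can pass to offspring.

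The whole testis was measured, so fewer cells of a type and less RNA per cell cannot be told apart. Of the marker lists for the cells of a testis, 17 of 18 Sertoli cell genes and 18 of 24 germ cell genes had a tested probe. The summed level of the germ cell markers, as multiples of the 75th percentile of an array, ran from 24.8 to 28.6 in the C group and from 26.3 to 31.0 in the T group, and 14 of the 18 stood higher in T. For the Sertoli cell markers the sum ran from 78.2 to 88.3 in C and from 70.5 to 84.8 in T, and 12 of the 17 stood lower in T. Among 21 tested genes of proliferation, 11 stood higher and 10 lower, with sums of 97.6 to 105 in C and 91.8 to 107 in T. Of the other lists, 6 of 11 Leydig cell, 5 of 7 endothelial, 6 of 9 macrophage and 6 of 6 erythroid markers stood higher in T, and 6 of 8 peritubular markers stood lower. The erythroid sum ran from 163 to 293 in C and from 221 to 297 in T, and the peritubular sum from 53.6 to 64.6 in C and from 52.2 to 58.1 in T. C replicate 3 alone set the low erythroid end, with 217 to 293 on the other C arrays. C replicate 1 alone set the high peritubular end, with 53.6 to 56.8 on the other C arrays. The Leydig cell sums were 36.8 to 46.6 and 34.5 to 50.6, the endothelial 2.87 to 3.64 and 3.27 to 3.72, and the macrophage 7.17 to 9.21 and 7.15 to 8.73. The part of these cell types in any value below was not tested. Slide 1 carried C replicates 1 to 3 with T replicates 1 and 2, and slide 2 the other 5 arrays. On both slides all C arrays lay before the T arrays, and position 3 alone held an array of each group, so position and group are largely confounded and the part of position was not tested.

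Values are log2 signals relative to the 75th percentile of each array, and differences are T minus C. All 27 tested genes were well above background on all 10 arrays, as were 93.4% of all tested probes. None passed the test between the groups: with limma and Benjamini-Hochberg adjustment over all 21892 probes, 0 of the 27 genes and 0.0% of all probes had an adjusted p under 0.05, with 0.9985 as the lowest value of any probe. At an unadjusted p under 0.05 there was 1 gene of the 27, Brca1, which stood lower in T, against a background of 3.97% of all probes, 2.38% lower and 1.59% higher in T. In 0 of the 27 genes did the arrays of one group lie wholly apart from those of the other, against 0.722% of all probes, 0.53% lower and 0.192% higher in T.

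The differences were small on both sides of zero. Of the 27 genes, 13 stood higher and 14 lower in T, or 51.9% lower, against 58.5% of all tested probes. Their median difference was -0.0092, beside -0.0204 for all probes, and they ran from -0.272 to 0.086. The sizes of these differences had a median of 0.055 on the log2 scale, beside 0.07 for all probes. The lean of all probes to lower values in T moved with the processing. Their median was -0.0016 with quantile normalization, 0.0008 without C replicate 1, 0.013 within slide 1 and -0.0325 without C replicate 3.

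How large a difference the arrays leave room for can be read from the intervals. The 95% confidence interval of the difference lay inside a 1.5-fold change in either direction for 27 of the 27 genes, beside 86.8% of all probes. It lay inside a 1.25-fold change for 22 of the 27, or 81.5%, beside 54.8% of all probes. These are intervals for single genes, not adjusted for their number. The 5 genes whose interval went past 1.25-fold were Rad50, Atm, Xrcc4, Lig4 and Brca1, which were named after their values were seen. Arrays of a group also lay close together, with a median SD within groups of 0.091 for these genes and 0.162 for all probes. It was 0.099 for the 21 proliferation genes and 0.13 for 81 other repair genes described below. Of these lists, 95.2% and 75.3% had an interval inside a 1.25-fold change. The part of signal level in these contrasts was not tested. The spread was larger in T than in C for 14 of the 27 genes, or 51.9%, beside 48.0% of all probes.

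**Figure D1:**
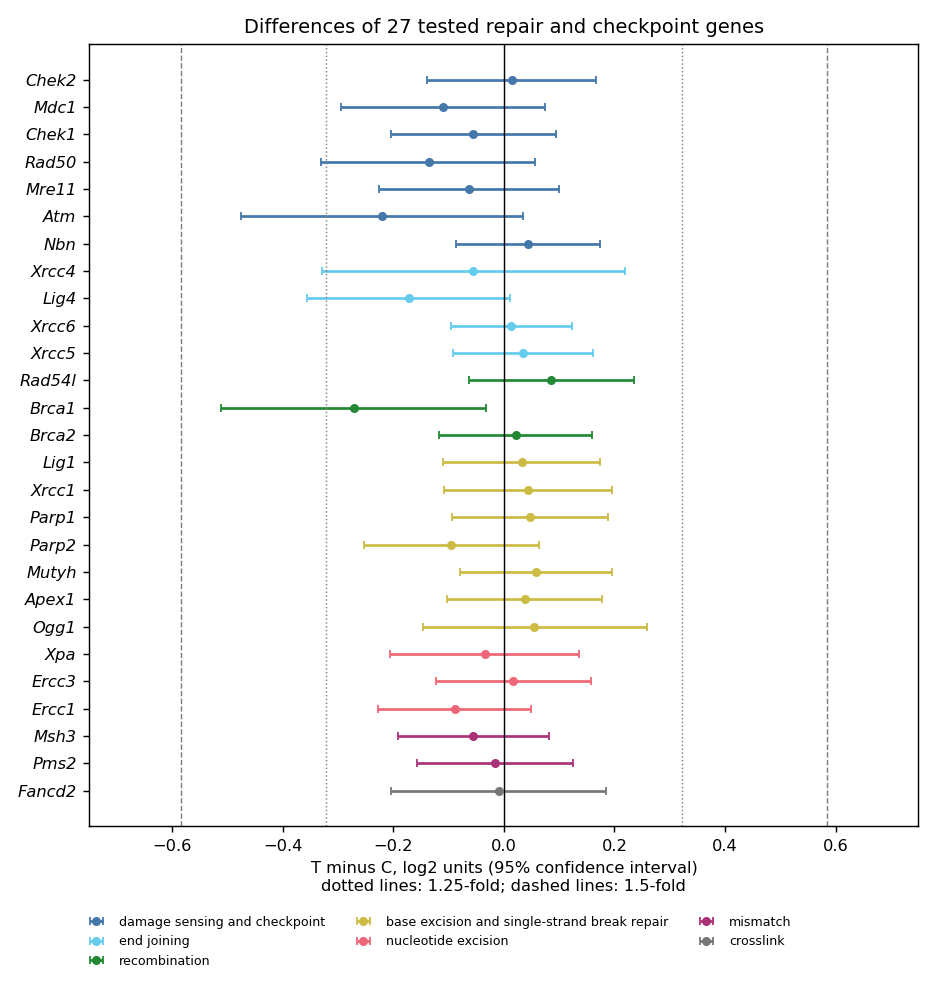
Difference between the groups (T minus C, log2 units, points) with its 95% confidence interval (bars) for the 27 tested genes, coloured by role. All 27 intervals lie inside the dashed lines of a 1.5-fold change, and that of Brca1 is the one that does not reach 0.

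Sensing and checkpoint genes came first in the order of events and were measured for 7 of 9 genes. Of these, 2 stood higher and 5 lower in T, with a median of -0.0631. Atm, the kinase that starts the response to double-strand breaks, had the smallest p of the 7. On the C arrays, replicates 1 to 5, its level was -5.02, -5.42, -5.28, -5.11 and -5.12. On the T arrays it was -5.34, -5.37, -5.10, -5.56 and -5.68. The lowest values were those of T replicates 4 and 5, but T replicate 3 lay level with the higher C arrays, so the groups overlapped. The difference was -0.22 ± 0.115 (SE, 5 arrays per group), with an interval of -0.476 to 0.035 and an adjusted p of 0.9985 in limma. Its signal of 46.9 to 72.1 units was dim, although well above background. With normexp background correction the Atm difference was -0.101.

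The sensor complex of double-strand breaks is made of Mre11, Rad50 and Nbn, which hold the ends together and call in Atm. Mre11, listed under its older name Mre11a, had levels of -3.05 to -2.86 in C and -3.16 to -2.91 in T, a difference of -0.063 ± 0.0735. Rad50 ran from -3.02 to -2.64 in C and from -3.04 to -2.81 in T, a difference of -0.136 ± 0.0874, with all 5 T arrays below the C mean. Within slide 1 the Rad50 difference was -0.201 and within slide 2 it was 0.008, and with slide as a block it was -0.097. Nbn differed by 0.043 ± 0.0584, with 4 of the 5 T arrays above the C mean. The 3 partners therefore did not stand on the same side, and each interval included 0.

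Mdc1 is the scaffold that builds repair foci on marked chromatin. It ranged from 1.39 to 1.81 in C and from 1.33 to 1.54 in T (difference -0.11 ± 0.0837). Of the checkpoint kinases, Chek1, which acts when replication stalls, gave -0.055 ± 0.0675, and Chek2, which Atm switches on, gave 0.014 ± 0.0692. Both intervals lay inside a 1.25-fold change.

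End joining, the pathway that ligates broken ends without a template, had 4 of 5 genes measured, with 2 higher, 2 lower and a median of -0.0206. Lig4, the ligase of the pathway, had levels of -4.51, -4.66, -4.79, -4.74 and -4.52 on C replicates 1 to 5. It had levels of -4.99, -4.83, -4.87, -4.65 and -4.74 on T replicates 1 to 5. All 5 T arrays lay below the C mean, and 3 of them below every C array, while T replicates 4 and 5 lay among the C arrays. The difference was -0.172 ± 0.0828 with an interval of -0.356 to 0.011 (limma, unadjusted p = 0.0626, adjusted p = 0.9985). The Lig4 signal of 60.4 to 108 units was also dim, and with normexp background correction the difference was -0.09.

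Xrcc4, which binds Lig4 and stabilises it, scattered more than any other of the 27 genes. It ran from -3.34 to -2.74 in C and from -3.29 to -2.81 in T, and differed by -0.055 ± 0.124. At the other end, Xrcc6 (Ku70) lay between 2.05 and 2.16 on all 10 arrays, with a difference of 0.013 ± 0.0496. Its partner Xrcc5 (Ku80), with which it forms the ring that caps broken ends, gave 0.034 ± 0.0572.

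Recombination copies the lost sequence from an intact strand, and 3 of its 6 genes were tested. Brca1, which steers breaks towards recombination, had levels of -4.08, -4.40, -4.58, -4.20 and -4.43 on C replicates 1 to 5. Its levels on T replicates 1 to 5 were -4.40, -4.51, -4.61, -4.79 and -4.74. All 5 T arrays lay below the C mean, 3 lay below every C array, and C replicates 1 and 4 lay above every T array, so the groups overlapped in the middle. The Brca1 signal of 89.1 to 116 units was dim, like those of Atm and Lig4, although well above background. The 75th percentile that was subtracted ran from 1525.3 to 2685.8 units, and the part of this scaling was not tested. The difference was -0.272 ± 0.108 (SE), or 1.21-fold higher in C, with an interval of -0.512 to -0.033 (limma, unadjusted p = 0.0296, adjusted p = 0.9985).

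This difference was not even across the measurement. The first spot of the Brca1 probe gave -0.387 and the second -0.158, and within the slides it was -0.102 on slide 1 and -0.4 on slide 2. Left without C replicate 1, C replicate 4, T replicate 4 or T replicate 5 it was -0.209, -0.238, -0.227 or -0.24, and the unadjusted p in limma lay above 0.05 each time, at 0.0707, 0.0694, 0.072 and 0.0678. With normexp background correction it was -0.162, and which of the changes made with it, in the signal, the background or the offset, lowered the value was not tested.

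Brca2, which loads the recombinase onto single strands, gave 0.021 ± 0.0625, with levels of 0.39 to 0.53 in C and 0.41 to 0.63 in T. Rad54l, a motor protein of strand exchange, stood at the upper end of all 27 genes with 0.086 ± 0.0675. T replicate 4, at -1.15, was its highest array, and T replicates 2 and 3 also lay above the C arrays, which ran from -1.48 to -1.37, while T replicates 1 and 5 lay among them. Xrcc2, a relative of the recombinase, was well above background on 3 arrays, 2 of C and 1 of T, with signals of 16.8 to 33.8 units, and was not tested.

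**Figure D2:**
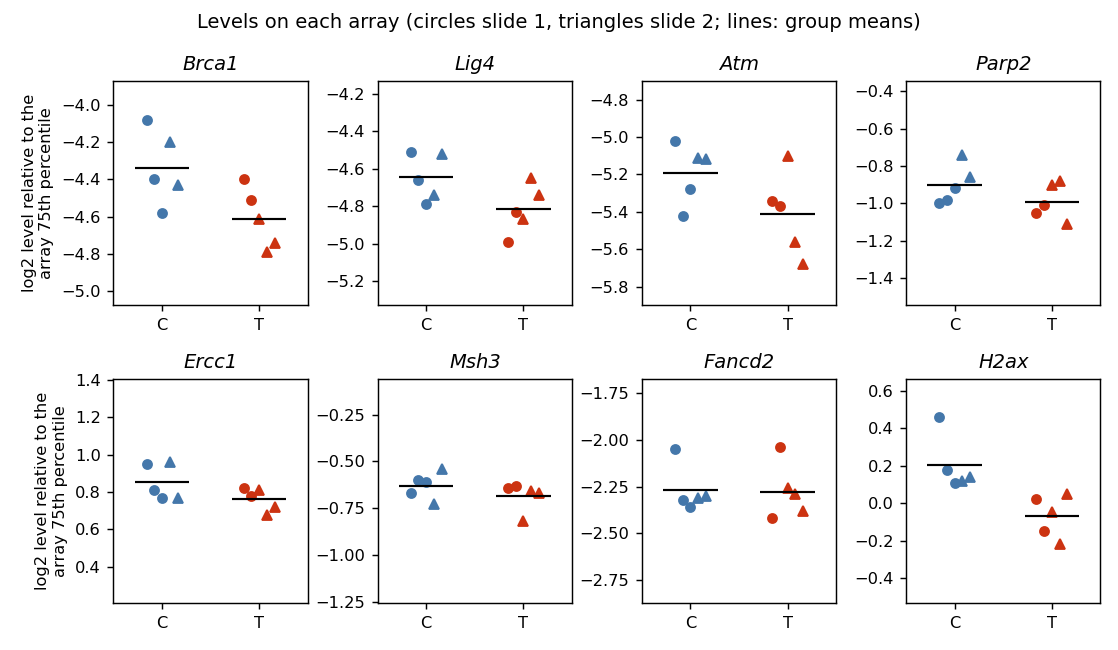
Level on each array (log2 relative to the 75th percentile of the array) for the gene with the smallest p of each of the 7 roles and for H2ax; each panel spans 1.2 log2 units, circles are slide 1, triangles slide 2 and lines the group means. The C and T arrays overlap in the 7 repair genes, while all 5 T arrays of H2ax lie below the C arrays.

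Base excision and the repair of single-strand breaks deal with oxidised and lost bases, and 7 of 8 genes were tested. Here 6 stood higher and 1 lower in T, with a median of 0.0432, and all 7 intervals lay inside a 1.25-fold change. Parp2, a sensor of strand breaks, was the one that stood lower and had the smallest p. Its levels were -1.0, -0.98, -0.92, -0.74 and -0.86 on C replicates 1 to 5, and -1.05, -1.01, -0.90, -0.88 and -1.11 on T replicates 1 to 5. T replicates 1, 2 and 5 lay just below every C array and the other T arrays among them, and the difference was -0.095 ± 0.0714 (limma, unadjusted p = 0.211).

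The steps of the pathway follow each other from the base to the nick. Ogg1, which cuts out oxidised guanine, differed by 0.055 ± 0.0915, and Mutyh, which removes adenine paired with it, by 0.058 ± 0.0621. Apex1, the endonuclease that opens the strand at the lost base, gave 0.038 ± 0.0633. The scaffold Xrcc1 gave 0.043 ± 0.0689, and Parp1, the main sensor of nicks, gave 0.047 ± 0.0638 from 10 spots on each array. Lig1, which also seals the fragments of the lagging strand in replication, gave 0.032 ± 0.0643. None of these 6 differences exceeded its own standard error, and each interval included 0.

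Nucleotide excision removes bulky adducts, and 3 of its 6 genes were tested. Ercc1, part of the nuclease that cuts beside the lesion and also unhooks crosslinks, had the smallest p. It had levels of 0.95, 0.81, 0.77, 0.96 and 0.77 on C replicates 1 to 5, and 0.82, 0.78, 0.81, 0.68 and 0.72 on T replicates 1 to 5. T replicates 4 and 5 lay below the C arrays and the others among them, for a difference of -0.089 ± 0.0625 (limma, unadjusted p = 0.182). Xpa, which checks the lesion, gave -0.035 ± 0.0774, and Ercc3, a helicase that opens the helix, gave 0.017 ± 0.0632.

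Mismatch repair corrects errors of replication, and 2 of 3 genes were tested, both slightly lower in T. Msh3, which recognises loops, had levels of -0.67, -0.60, -0.61, -0.73 and -0.54 on C replicates 1 to 5. On T replicates 1 to 5 it had -0.64, -0.63, -0.82, -0.66 and -0.67. T replicate 3 alone lay below the C arrays, and the difference was -0.055 ± 0.0613 (limma, unadjusted p = 0.389). Pms2, the endonuclease of the pathway, gave -0.016 ± 0.0636.

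For crosslinks, which cisplatin makes, Fancd2 was the 1 gene of 3 with a probe. This protein is tethered to chromatin at stalled forks when the Fanconi pathway is switched on. Its levels were -2.05, -2.32, -2.36, -2.31 and -2.30 on C replicates 1 to 5, and -2.42, -2.04, -2.26, -2.29 and -2.38 on T replicates 1 to 5. One array of each group stood high, C replicate 1 and T replicate 2, and the rest lay together. The difference was -0.009 ± 0.088 (limma, unadjusted p = 0.919), and its interval of -0.204 to 0.185 lay inside a 1.25-fold change. Its sign turned in 11 of 26 alternatives, among them quantile normalization (0.01).

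The deposited files used here hold no probe sequences, so the promoters of the 3 genes with the smallest p are shown instead, as the 250 bases before the gene's start in RefSeq (GRCr8 build), 5′ to 3′ on the strand of the gene. Capitals mark matches to 6 motifs of genes of cell division and of broadly active genes. In the promoter of Brca1 this is a CCAAT box that begins 156 bases before the start. In that of Lig4 the capitals mark 3 GC boxes, and in that of Atm none of the motifs matched.
Brca1, chr10:86977582-86977831, minus strand: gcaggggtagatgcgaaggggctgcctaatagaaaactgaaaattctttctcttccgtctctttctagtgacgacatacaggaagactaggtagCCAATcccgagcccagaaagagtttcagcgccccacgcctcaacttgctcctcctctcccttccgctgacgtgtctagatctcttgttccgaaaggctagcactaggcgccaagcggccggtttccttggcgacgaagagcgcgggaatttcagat
Lig4, chr16:86220192-86220441, plus strand: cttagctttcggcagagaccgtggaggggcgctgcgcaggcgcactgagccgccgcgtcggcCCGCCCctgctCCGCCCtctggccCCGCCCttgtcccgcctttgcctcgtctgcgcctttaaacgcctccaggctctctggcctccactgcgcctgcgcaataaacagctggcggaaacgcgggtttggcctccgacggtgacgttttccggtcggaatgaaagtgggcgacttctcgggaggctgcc
Atm, chr8:62828630-62828879, minus strand: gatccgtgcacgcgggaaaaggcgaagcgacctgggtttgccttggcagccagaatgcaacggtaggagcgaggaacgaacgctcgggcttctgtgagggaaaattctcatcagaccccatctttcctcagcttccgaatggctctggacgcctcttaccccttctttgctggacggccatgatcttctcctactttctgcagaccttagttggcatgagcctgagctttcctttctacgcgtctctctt

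Promoters of this length were found for 32 of the 40 genes and for 27457 genes in all, and motifs were searched on both strands. The GC box (GGGCGG, read by Sp1) stood in 22 of the 32, or 68.8%, beside 32.4% of all promoters. A CCAAT box (CCAAT, read by NF-Y) stood in 12 of the 32, or 37.5%, beside 34.3% of all. The ETS motif (CCGGAAGT) was found in Ercc3, Ercc5 and Fancd2, or 9.38%, beside 3.29%. The cell cycle element CHR (TTTGAA) matched in Xrcc1 alone, or 3.12%, beside 16.0% of all promoters, and the CRE (TGACGTCA) in Fancd2 alone, beside 1.7% of all. For E2F only the letters TTTNGCGC were searched, which leaves out other forms of the site, and they matched in 0 of the 32, beside 1.11% of all. These are matches of letters in a short window, and no binding was measured.

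On average over all pairs, the genes did not rise and fall together from array to array. After the mean of each group was taken from its arrays, the mean correlation over the 351 pairs of the 27 genes was -0.001, with 46.4% of the pairs positive, beside 0.0516 over all tested probes. All pairs share the same 10 arrays and their scaling, and the values are a description. A mean this small can also arise where sets of genes vary in opposite ways. The extremes were 0.9 for Brca1 with Ercc1 and -0.85 for Xrcc6 with Chek2, picked from the 351 pairs.

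The 2 slides were compared with the group held as a term. On slide 2 against slide 1, 2143 probes (9.79%) had an adjusted p under 0.05, of which 1890 (8.63% of all probes) were lower on slide 2. Of the 27 genes, 0 passed. Rad50 came closest, lower on slide 2 by a log2 difference of -0.199 (limma, adjusted p = 0.0912), and Ercc3 followed with -0.127. Only these 2 of the 27 had an unadjusted p under 0.05, against 24.1% of all probes. With the slide held as a block, 0.0% of all probes had an adjusted p under 0.05 in limma between T and C, and so none of the 27 genes. Brca1 stood at -0.251 (limma, unadjusted p = 0.0434) and Lig4 at -0.191 (limma, unadjusted p = 0.041). These 2 of the 27 genes had an unadjusted p under 0.05, both lower in T, against a background of 4.64% of all probes and 2.56% lower in T.

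**Figure D3:**
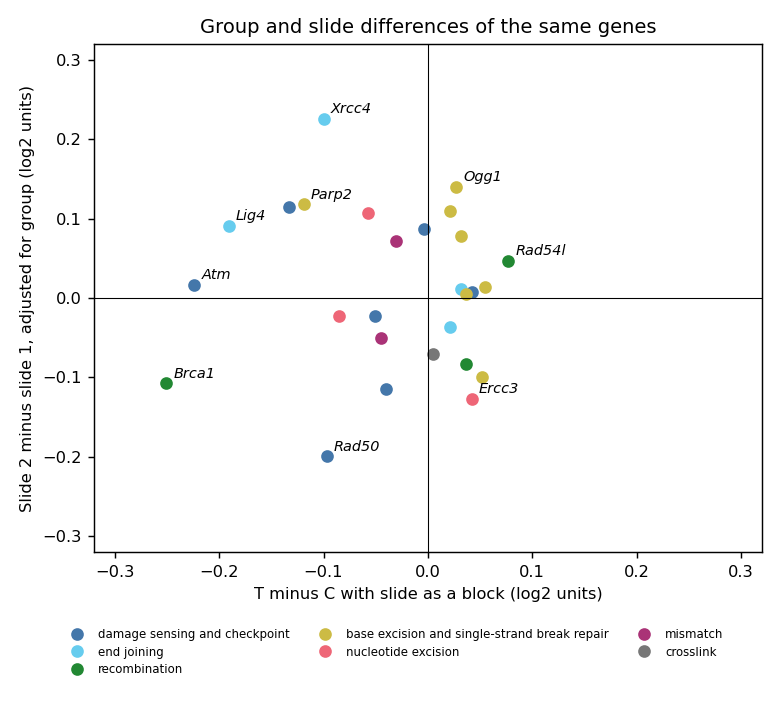
Difference between the groups with slide as a block (T minus C, x axis) against the difference between the slides adjusted for group (slide 2 minus slide 1, y axis), both in log2 units, for the 27 tested genes. Brca1 lies farthest left at -0.251, Xrcc4 highest at 0.226 and Rad50 lowest at -0.199.

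Several spots of the same probe on an array show how much of the spread arises on the slide itself. For the 25 tested genes with more than 1 spot, the SD between arrays within groups was 1.4 to 5.34 times the error of the mean of the spots, with a median of 2.67, beside 3.09 over 13005 probes. Brca1 had the lowest ratio, 1.4, and was the only one of the 25 below 1.5, but Lig4 (1.51), Ercc1 (1.52) and Mre11 (1.58) followed closely. The error of the spots is already part of the spread between arrays from which each p was computed. The part of spot error in the Brca1 difference was not tested. In 22 of the 25 genes the first and the second spot gave a difference of the same sign. Both spots read the same hybridised RNA, and the share over all probes was not counted.

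**Figure D4:**
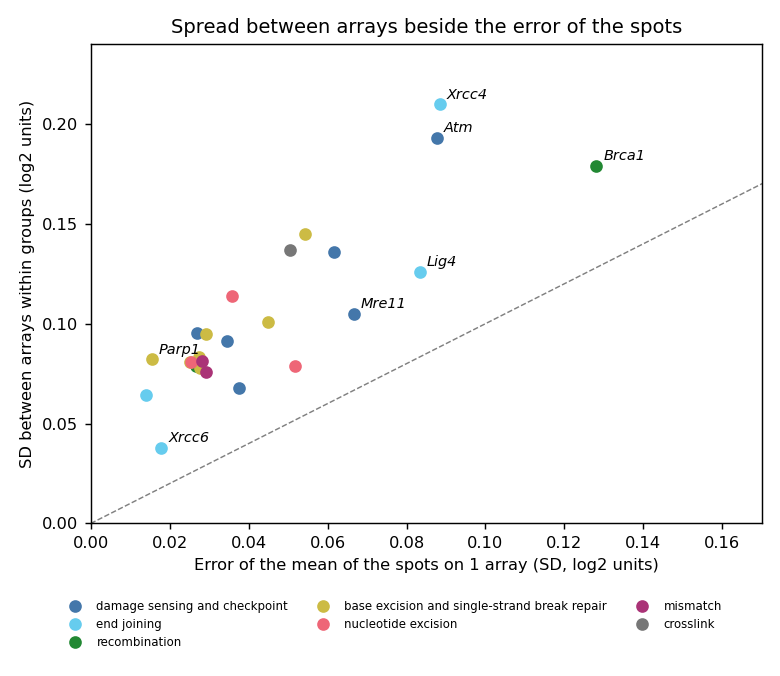
SD between arrays within groups (y axis) against the error of the mean of the spots on 1 array (x axis), both in log2 units, for the 25 genes with more than 1 spot. The dashed line marks equal values; all genes lie above it, and Brca1 lies closest to it in proportion, at 1.4 times its spot error.

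Other repair genes were taken from a list of 104, of which 81 had a tested probe, the brightest standing for each gene. None passed with adjustment, and 39 stood higher and 42 lower in T, or 51.9% lower beside 58.5% of all probes. Of the 81, 2 had an unadjusted p under 0.05, both lower, against a background of 3.97% in either direction and 2.38% lower in T. H2ax, the histone that is phosphorylated around breaks, had levels of 0.46, 0.18, 0.11, 0.12 and 0.14 on C replicates 1 to 5. On T replicates 1 to 5 it had 0.02, -0.15, -0.05, -0.22 and 0.05. All T arrays lay below all C arrays, as did 0.53% of all probes. The difference was -0.271 ± 0.0856 (limma, unadjusted p = 0.00949, adjusted p = 0.9985), and it was -0.205 without C replicate 1.

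Mgmt, which strips alkyl groups from guanine, had levels of 1.07, 1.08, 0.31, 0.82 and 0.86 on C replicates 1 to 5. Its T arrays read 0.69, 0.53, 0.29, 0.24 and 0.57. C replicate 3 lay among the T arrays, and the other C arrays lay above all of them. The difference was -0.365 ± 0.149 (limma, unadjusted p = 0.0336, adjusted p = 0.9985), and it was -0.494 without C replicate 3. Left without C replicate 1, 2, 4 or 5 it was -0.305, -0.301, -0.366 or -0.358, and without T replicate 3 or 4 it was -0.321 or -0.309, and in each of these the unadjusted p in limma lay above 0.05, between 0.0544 and 0.0822. Within slide 1 the difference was -0.213 and within slide 2 -0.472. An unadjusted p under 0.05 was kept in 16 of 26 alternatives.

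The 21 tested genes of proliferation had 28 tested probes. With the brightest probe standing for each gene, 0 of the 21 had an unadjusted p under 0.05. Of the 28 probes 2 did, both lower in T, against a background of 3.97% of all probes and 2.38% lower in T. These 2 were the dimmer probes of their genes. Mcm4, a subunit of the replicative helicase, gave -0.434 ± 0.189 on its dimmer probe (limma, unadjusted p = 0.0438) and 0.039 ± 0.0636 on its bright one. For Rrm2, the small subunit of ribonucleotide reductase, the dimmer probe gave -0.241 ± 0.0819 (limma, unadjusted p = 0.0139) and the bright one -0.026 ± 0.0821. The probes of Mcm4 lay on opposite sides of zero and those of Rrm2 on the same side. The difference between the probes of a gene was not tested. An unadjusted p under 0.05 was kept in 9 of 26 alternatives by the dimmer Mcm4 probe and in 24 of 26 by that of Rrm2.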

How the data were processed

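The deposited files hold spot intensities that were background-subtracted and not scaled between arrays, written by Agilent Feature Extraction (version 10.7.3.1 per the file headers, 10.7 per the submitters' processing notes). Each array had 62976 spots, of which 4259 controls were left out. The log2 of the processed signal was taken and the 75th percentile of each array subtracted, which was 1525.3 to 2685.8 units before log2. Spots with an outlier flag (494 to 745 per array) were set missing, 0 were saturated, and spots of a probe were averaged. A probe was tested if it was well above background on at least 5 of 10 arrays, which held for 21892 of 30367 probes (72.1%). Accessions were matched without version to RefSeq (GRCr8), giving 17998 probes a symbol and 12369 none. Pairs of arrays correlated at 0.9899 to 0.9966. With 5 arrays a group, precision is limited by their number.

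Groups were compared with limma 3.58.1 in R 4.3.3 (two-sided, Benjamini-Hochberg over all tested probes, threshold 0.05). In 1 simulated set of 21892 probes, 3 fold sizes were mixed. Calls were made for 26.5% of 200 probes shifted 1.25-fold, 73.5% of 200 shifted 1.5-fold and 89% of 200 shifted 2-fold. Noise was drawn independently for each probe from its own SD within groups, with no slide difference or shared variation. The shares therefore need not hold for the real arrays, or for a gene that changed alone. The genes, roles and lists were chosen with earlier results of these data known, so no list was tested. Named in full were genes with an unadjusted p under 0.05 or without overlap and the gene with the smallest p of each role; from the other lists, those with an unadjusted p under 0.05.

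Some choices were made after values were seen: the motifs and promoters shown, the correlation within groups, the comparison of spots, and the fits on list scores. The error of the spots was at first estimated without centring each spot on its mean over arrays, which put 7 of 25 genes below a ratio of 1.5, with a median of 2.0, in place of 1 and 2.67. The centred estimate was kept because a fixed offset between spot positions is no error of the difference.

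The authors' deposited table of log2 values, centred per probe, served as an alternative (21193 probes). Correlations with the scanner values, centred likewise, were 0.9978 to 0.9987 and ran the same way. The medians of its C columns, replicates 1 to 5, were 0.0288, 1e-04, -0.0166, 0.0202 and -0.0089. Those of its T columns, in the same order, were 0.0032, 0.0037, -0.0026, -0.0169 and -0.0023. Its scaling between arrays and its choice of probes stay unknown.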

Additional observations from a re-analysis of the deposited data

Results flagged for a closer look

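In 7 of 68 groups of 5 arrays, 1 array lay far from the others (a gap above 0.71 of the range of the group), where chance gives about 1 in 20. Of these, 4 lay among the 54 groups of the 27 tested repair genes. Apex1 was low on C replicate 1, at 3.21 against 3.35 to 3.39 on the other C arrays. Fancd2 was high on the same array, at -2.05 against -2.36 to -2.3, and so was H2ax, at 0.46 against 0.11 to 0.18. C replicate 1 therefore held 3 of the 7, and it also had the lowest 75th percentile of signal, 1525.3 units. Ogg1 was high on T replicate 4, at -0.98 against -1.32 to -1.29. Msh3 was low on T replicate 3, at -0.82 against -0.67 to -0.63. Among the genes of proliferation, the dimmer probe of Mcm4 was high on T replicate 3, at -2.03 against -2.66 to -2.51, and the bright probe of Rrm2 was low on T replicate 4, at 3.44 against 3.78 to 3.81.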

How the results depend on the processing

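In all 26 alternatives 0 probes had an adjusted p under 0.05, while the count at an unadjusted p under 0.05 ran from 483 with normexp to 1151 without T replicate 1, beside 869. Among the 27 genes the number lower in T ran from 12 to 18. The number at an unadjusted p under 0.05, 1 as reported, was 2 with the code suffix as a term, the first spots alone (chosen after seeing the data) or slide as a block, and 0 with normexp, the second spots alone or slide 1 alone. Leaving out 1 array gave 0 (C replicate 1 or T replicate 5) to 2 (C replicates 2 or 3, T replicate 3). The median difference was 0.0142 with array weights and 0.0134 with the second spots, and -0.0258 to 0.0087 with 1 array left out. Brca1 ran from -0.4 to -0.102 and kept an unadjusted p under 0.05 in 18 of 26 alternatives, with an adjusted p of at least 0.848. Lig4 ran from -0.258 to -0.09 and Atm from -0.33 to -0.053. Parp2, Ercc1, Msh3, H2ax, Mgmt and the dimmer probes of Mcm4 and Rrm2 kept their direction in all 26. Fancd2, at -0.009, turned to 0.036 with array weights, 0.006 with the code suffix, 0.01 with quantile normalization, 0.004 with the second spots, 0.005 with slide as a block, 0.002 with the authors' table, 0.015 within slide 1, and 0.046, 0.026 and 0.017 without C replicate 1, T replicate 1 and T replicate 5; leaving out 1 array gave -0.068 to 0.046. The causes were not tested. Normexp used the median spot signal with an offset of 50 units, since the files used here give no mean signal.

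Code numbers are shared by 3 pairs of arrays, whose deviations from the group means correlated at -0.512, 0.282 and 0.194. The first pair, C replicate 5 with T replicate 1, lay on different slides, while the arrays of each other pair shared a slide. Slide was not removed from the deviations, so these values cannot tell whether the numbers pair the samples. A replicate block on these 6 arrays left 0 of the 27 genes at an unadjusted p under 0.05, with 0.072 for Fancd2 and 697 probes in all. Of the 6 arrays, 2 correlated best with their own number.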

Other observations

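The repair genes were also set against list scores of proliferation, germ cells and Sertoli cells over the 10 arrays, in fits across all tested probes with the group as a term. With the proliferation score, 829 probes (3.79%) had an adjusted p under 0.05 in limma. So did 0 of the 27 genes, too few genes to set this apart from that share, with 0.0936 as the lowest value among them. The probes that make up a score were themselves among all tested probes, so the shares over all probes include them. Of the 27, 5 had an unadjusted p under 0.05, beside 22.1% of all probes. With the slide as a further term 0 probes passed with the proliferation score, with 6.5% at an unadjusted p under 0.05 and 1 of the 27 genes. With the germ cell and Sertoli cell scores, 0 probes and 0 of the 27 genes passed with or without the slide. At an unadjusted p under 0.05 these fits held 0 of the 27 genes without the slide, beside 4.65% and 9.79% of all probes, and 1 of the 27 with it, beside 5.94% and 9.15%.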
